A study of Mus musculus with 2 samples.

Results

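The RNAs described here were spliced transcripts of mouse hippocampus that were assigned to no annotated gene of their own strand: models on the strand opposite an annotated gene (antisense) or between annotated genes (intergenic). They were found by long-read RNA sequencing, in which 1 read covers a transcript or a large part of it and so shows a chain of introns directly. TALON, the program that placed the reads, assigns each read to an annotated or an unannotated transcript model and gives the model a class. Members were chosen by the read tables themselves: every model of the antisense or intergenic class with 2 or more exons in either library. This rule took 1321 of 133886 models in replicate 1 and 1122 of 133393 in replicate 2. Models of both libraries that overlapped on the same strand were joined, which gave 1758 loci, 1125 antisense and 633 intergenic. They were 1758 of the 14708 antisense and intergenic loci of the series, the others holding models of 1 exon alone. Because the rule read these tables, the number of loci, their levels and their presence in both libraries are descriptions with no test. The rule compared no library with the other, and only differences between the libraries were tested.

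The tissue was labelled layer of hippocampus, and the source label does not name the layer. It came from C57BL/6 mice (strain B6NCrl), adult at 6 months of age, with no treatment or second condition labelled. The labels say male in a description, while their field for sex reads not collected. The 2 libraries are labelled as biological replicates 1 and 2 of 1 group, with separate biosamples and a shared donor identifier, and nothing says that they came from separate animals. A p-value between them therefore measures the spread between these libraries against counting error, and that spread may be technical.

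Antisense transcripts are RNAs made from the strand opposite a gene, and many start near the promoter of a gene and run away from it, since promoters of mammals can be transcribed in both directions. Some antisense RNAs overlap exons of the opposite gene and can alter its transcription, splicing or stability, while for most no function is known. Spliced transcripts between genes that lack a long open reading frame are called long intergenic noncoding RNAs, and brain is a tissue where many of them are detected. An intron read on the correct strand nearly always begins with GT and ends with AG, and the same intron read from the opposite strand shows CT and AC in those places.

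By position against annotated introns, antisense introns were of 2 kinds. Junction sequences of both are printed because much of what follows turns on them. In the first kind, called mirrored here, the start and the end of the antisense intron were the same bases as those of an annotated intron of the opposite gene. In each line below the lower-case letters are the last 15 bases of the upstream exon and the capitals are the first 15 bases of the downstream exon, on the strand of the antisense locus. The bases were read from RefSeq (GRCm38.p6) and GENCODE M21 transcripts, and all positions are mm10. The mirrored junctions are those opposite Gpr85, Cst3, Ptn, Bcl2l1 and Ybx1, at chr6:13837074-13838278, chr2:148872931-148875152, chr6:36715763-36741277, chr2:152830103-152830385 and chr4:119278368-119278933, all on the plus strand.
antisense of Gpr85: ttgccatcagaacatTCGAAGATGGGAAGA
antisense of Cst3: cactccagccacgagCTGCTTACGAGCTCT
antisense of Ptn: tcttctttgactccgCTTGAGGCTTGGGCT
antisense of Bcl2l1: agccaagataaggttATTCAAATCTATCTC
antisense of Ybx1: tgttggatgaccaaaCCGGATGATGGTAGA

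The complement of such a junction is the junction of the host gene, the annotated gene on the opposite strand. The annotated Gpr85 transcript joins the exon ends that flank the same intron, and its junction is printed beside the antisense one, with capitals for the downstream exon of Gpr85.
sense strand of Gpr85: tcttcccatcttcgaATGTTCTGATGGCAA

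In the second kind the antisense intron matched no annotated intron of the opposite strand. The junctions opposite Ppp2r3d (chr9:124423553-124423791, plus strand) and Mir124a-1hg (chr14:64588963-64589835, minus strand) are of this kind, and both introns read GT and AG on the strand of the locus.
antisense of Ppp2r3d: tctgtcctccctcggGAAGTCCCTCTCCTT
antisense of Mir124a-1hg: ggtcctctcgcttagAGGTCCGCAGGTCCG

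Start regions of 5 loci seen in both libraries are printed because the start of a spliced locus often lay beside an annotated start. Each line is a RefSeq window (GRCm38.p6) of 300 bases, from 250 bases before to 50 bases after a RefSeq gene start, turned to the strand of the locus. Capitals mark the bases that lie in exons of the leading model, the model with most reads of the locus. The start of a locus means here and below the 5′ end of its leading model, which can lie inside the span of the locus where other models begin earlier. The first 2 windows belong to genes of the opposite strand: Selenoi (chr5:30232331-30232630, printed on the minus strand) and Fgfrl1 (chr5:108693979-108694278, minus strand).
between Adgrf3 and Gm16288, opposite Selenoi: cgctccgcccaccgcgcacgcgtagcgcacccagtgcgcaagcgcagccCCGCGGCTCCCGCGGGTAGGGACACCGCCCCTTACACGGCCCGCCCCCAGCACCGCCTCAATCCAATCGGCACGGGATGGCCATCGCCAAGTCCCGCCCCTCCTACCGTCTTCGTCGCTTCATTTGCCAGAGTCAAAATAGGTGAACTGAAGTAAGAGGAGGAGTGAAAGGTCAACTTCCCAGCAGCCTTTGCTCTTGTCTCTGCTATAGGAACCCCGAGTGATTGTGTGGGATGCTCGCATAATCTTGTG
antisense of Fgfrl1: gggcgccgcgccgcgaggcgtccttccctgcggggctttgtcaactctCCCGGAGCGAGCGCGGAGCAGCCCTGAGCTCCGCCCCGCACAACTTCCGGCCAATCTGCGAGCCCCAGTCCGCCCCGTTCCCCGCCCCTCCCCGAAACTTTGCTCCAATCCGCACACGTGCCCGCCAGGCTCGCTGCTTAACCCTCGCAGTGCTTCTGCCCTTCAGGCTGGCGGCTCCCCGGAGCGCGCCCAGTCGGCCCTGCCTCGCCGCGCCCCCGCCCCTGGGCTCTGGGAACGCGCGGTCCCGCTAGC

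The other windows belong to RefSeq genes of the same strand that GENCODE M21 does not hold: Gm38396 (chr17:17179055-17179354, plus strand), Gm38882 (chr6:117879383-117879682, plus strand) and Gm32026 (chr19:16063863-16064162, plus strand). The capitals begin 16, 21 and 3 bases from the RefSeq start.
between Zfp97 and Gm5165, RefSeq Gm38396: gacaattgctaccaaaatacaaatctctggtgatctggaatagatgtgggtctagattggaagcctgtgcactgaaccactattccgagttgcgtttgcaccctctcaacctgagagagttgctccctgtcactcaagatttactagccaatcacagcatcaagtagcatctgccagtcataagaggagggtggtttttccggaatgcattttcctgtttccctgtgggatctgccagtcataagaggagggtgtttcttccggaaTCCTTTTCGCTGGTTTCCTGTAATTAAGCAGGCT
between Zfp239 and Gm29509, RefSeq Gm38882: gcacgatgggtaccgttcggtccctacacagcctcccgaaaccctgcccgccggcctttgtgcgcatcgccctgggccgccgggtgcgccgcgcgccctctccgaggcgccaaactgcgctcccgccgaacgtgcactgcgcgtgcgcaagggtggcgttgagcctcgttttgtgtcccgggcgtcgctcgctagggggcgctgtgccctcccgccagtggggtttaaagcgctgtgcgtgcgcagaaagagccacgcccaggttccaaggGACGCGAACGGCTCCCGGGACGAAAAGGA
between AC136453.1 and Gnaq, RefSeq Gm32026: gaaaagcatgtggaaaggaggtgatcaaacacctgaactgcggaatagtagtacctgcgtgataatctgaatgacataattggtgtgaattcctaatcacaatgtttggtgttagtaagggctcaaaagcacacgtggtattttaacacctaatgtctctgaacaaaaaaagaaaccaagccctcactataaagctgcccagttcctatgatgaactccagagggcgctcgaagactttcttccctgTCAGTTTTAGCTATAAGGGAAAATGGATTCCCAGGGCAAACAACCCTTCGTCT

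Replicate 1 held 1330153 reads and replicate 2 held 1366252, so 1 read was 0.752 and 0.732 CPM (the count of a model or locus if its library had 1000000 reads). A count of 0 in a library allows up to 3 reads, or 2.26 CPM for replicate 1 and 2.20 for replicate 2. These limits and the intervals below cover counting error only. Markers of neurons had a summed level of 3790 CPM in replicate 1 against 4521 in replicate 2, and those of dentate granule cells 565 against 700 CPM, so the cells of a hippocampus were represented in both. All 6 markers of the choroid plexus, a secretory epithelium within the ventricle beside the hippocampus, were higher in replicate 1. Their sum was 13926 CPM against 316, and Kcne2 had 40 reads against 0. All 3 markers of the meninges were lower in replicate 1, at 1195 against 2855 CPM. In such bulk tissue, fewer cells of a type and less RNA per cell cannot be told apart.

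Most members rested on a single read. Of the 1321 spliced models of replicate 1, 1124 had 1 read (85.1%), as had 959 of the 1122 models of replicate 2 (85.5%). Only 33 and 29 models had 5 or more reads. Just inside the threshold of the rule, 796 and 643 models had 2 exons (60.3% and 57.3%), 320 and 299 had 3 exons, and 205 and 180 had 4 or more. Just outside it, the models of 1 exon numbered 7812 and 4927 in the antisense class and 2412 and 2019 in the intergenic class. Spliced models thus held 1179 of the antisense reads in replicate 1 and 950 in replicate 2, which was 1.66% and 2.30% of the reads of that class. In the intergenic class they held 604 and 579 reads, 9.52% and 11.2%. The median spliced model was 1074 bases long in replicate 1 and 1119 bases in replicate 2.

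The antisense loci with most spliced reads lay opposite Gpr85 and Nefm, genes known from neurons. The locus opposite Gpr85, an orphan receptor gene of the brain, had 28 spliced reads in each library and the highest level of all, at 20.8 ± 0.393 CPM (SD, n = 2). It ran on the plus strand at chr6:13834458-13839179, within Gpr85, with a first exon of 2616 bases and a second of 176 bases in its leading model. Opposite Nefm, which encodes the medium neurofilament subunit of axons, 24 and 30 spliced reads gave 20.0 ± 2.77 CPM. This locus (chr14:68123740-68136034, plus strand) overlapped the 5′ end of Nefm and ran away from it, and 6 of its 8 introns were the same in both libraries. Nefm itself stood at 340 CPM. Spliced models held most reads of both loci: all reads numbered 33 and 28 opposite Gpr85 and 30 and 37 opposite Nefm.

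The locus opposite Fgfrl1, a fibroblast growth factor receptor that lacks a kinase domain, had 14 spliced reads in replicate 1 and 19 in replicate 2. Its level of 12.2 ± 2.39 CPM was close to that of Fgfrl1, 11.8 CPM. It lies at chr5:108683880-108694230 on the minus strand, and its exons shared only 1 base with exons of Fgfrl1. Opposite Ppp2r3d, a regulatory subunit of protein phosphatase 2A, 17 and 13 spliced reads gave 11.1 ± 2.31 CPM at chr9:124423234-124424479 (plus strand), over the RefSeq gene 4930526I15Rik. Ppp2r3d had 1 and 3 reads, so the antisense locus held more reads than its host in both libraries. The locus within Atrnl1, the attractin-like gene, had 11 and 15 spliced reads (9.62 ± 1.92 CPM, chr19:57827160-57832281, minus strand). None of its exon bases overlapped an exon of Atrnl1.

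Other loci lay opposite an abundant gene or among repeated gene copies. Opposite Cst3, the secreted protease inhibitor cystatin C, there were 13 and 11 spliced reads, a level of 8.91 ± 1.22 CPM at chr2:148871722-148875451 (plus strand). Cst3 itself had 10204 reads in replicate 1 and 8702 in replicate 2, or 7020.3 CPM, and both introns of the leading antisense model mirrored it. Opposite 9030025P20Rik there were 8 and 17 spliced reads (9.23 ± 4.55 CPM, chr17:14981576-14992871, minus strand, RefSeq Gm3255). That gene has near-identical neighbours, so its reads could be split between copies and the value is uncertain. The same holds for the locus that spans H2-M10.2, of the class Ib histocompatibility cluster, with 9 and 12 spliced reads (7.77 ± 1.43 CPM, chr17:36271383-36318758, plus strand). Its leading model began 111 bases from the start of Trim39, and H2-M10.2 had no reads.

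Lower in the ranking, the locus opposite Slitrk5, a synaptic adhesion protein, had 13 and 9 spliced reads (8.18 ± 2.25 CPM, chr14:111508854-111680780, minus strand, RefSeq Gm30439). The locus opposite Cep85, a centrosomal protein gene, had 9 and 11, and the one opposite Dnajb12, a chaperone partner of the endoplasmic reticulum, had 12 and 7. Opposite Gnas, the imprinted gene of the stimulatory G protein alpha subunit, there were 10 and 5. The locus opposite Bcl2l1, the anti-apoptotic Bcl-xL gene, had 6 and 7 (4.82 ± 0.433 CPM). Opposite Ptn, the growth factor pleiotrophin, the libraries were farther apart at 12 and 3 spliced reads (5.61 ± 4.83 CPM, chr6:36714929-36741439). This gave p = 0.0198 by two-sided Fisher's exact test and an adjusted p of 0.160, which did not pass the threshold of 0.05.

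Intergenic loci reached somewhat lower levels, and the leading one faced a gene start. Between Adgrf3 and Gm16288 (chr5:30223096-30232581, minus strand) there were 19 spliced reads in replicate 1 and 24 in replicate 2, a level of 15.9 ± 2.32 CPM. Its first base was that of the annotated start of Selenoi, the ethanolamine phosphotransferase of phospholipid synthesis, which lies on the other strand and had 26 and 24 reads. The leading model joined exons of 257 and 779 bases. Between Gm26615 and Wasf2, a regulator of branched actin, there were 11 and 18 spliced reads (10.7 ± 3.47 CPM, chr4:133096301-133101547, plus strand). These were a small part of the 167 and 189 reads of that locus, the others being unspliced. Between Gm48596 and Marveld2, which encodes tricellulin, the counts were 7 and 15 (8.12 ± 4.04 CPM, chr13:100589000-100594047, minus strand), of 44 and 63 reads in all.

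The locus between Pfas and Aurkb, of purine synthesis and of the mitotic kinase aurora B, had 9 spliced reads in each library (6.68 ± 0.126 CPM, chr11:69011474-69016165, minus strand). It overlapped the 5′ end of Ctc1, a telomere maintenance gene, on the opposite strand. Between Zfp97 and Gm5165 there were 7 and 9 (5.92 ± 0.937 CPM, chr17:17178961-17206220, plus strand). Between Zfp239 and Gm29509 there were 9 and 2 (4.11 ± 3.75 CPM, chr6:117879654-117884591, plus strand), which gave an unadjusted p of 0.0362 by Fisher's exact test and did not pass after adjustment. Among all 25 named loci seen in both libraries, none passed Fisher's exact test on spliced reads, and the smallest adjusted p was the 0.160 of the locus opposite Ptn. Only the 2 loci just named for their spread, Ptn and that beside Zfp239, had an unadjusted p below 0.05, and none of the 25 passed edgeR's exact test on all reads.

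**Figure D1:**
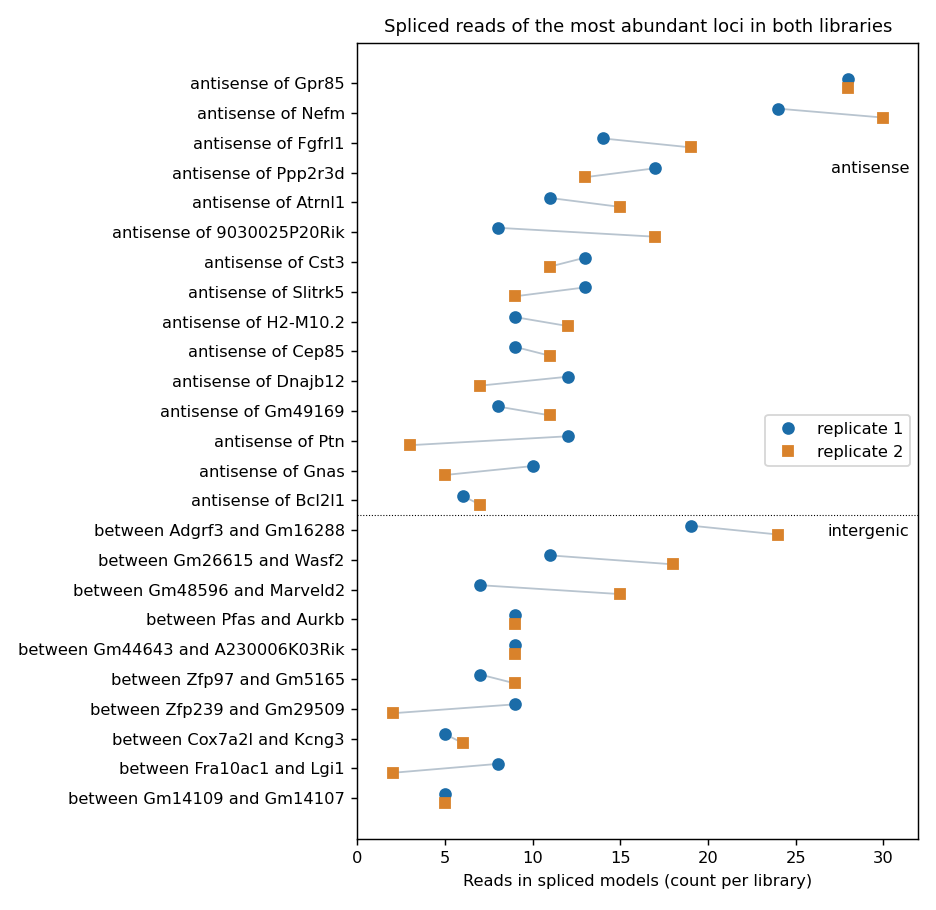
Spliced reads (count per library) in replicate 1 (circles) and replicate 2 (squares) for the 15 antisense and 10 intergenic loci with the highest mean level among those spliced in both libraries. The points of Gpr85 coincide at 28 reads, while those of Ptn (12 and 3 reads) and of the locus between Zfp239 and Gm29509 (9 and 2 reads) lie apart.

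The exon maps of the leading loci show how differently they sit on their hosts. The antisense exons of Gpr85 and Cst3 lay over exons of the host, whereas those of Nefm and Fgfrl1 extended away from the 5′ end of the host, and the exons opposite Atrnl1 lay in a host intron. The leading model opposite Cst3 had exons of 322, 114 and 299 bases. Counting the exons of all models of a locus together, 742 bases opposite Cst3, 3412 bases opposite Gpr85 and 1107 bases opposite Nefm lay over host exons.

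**Figure D2:**
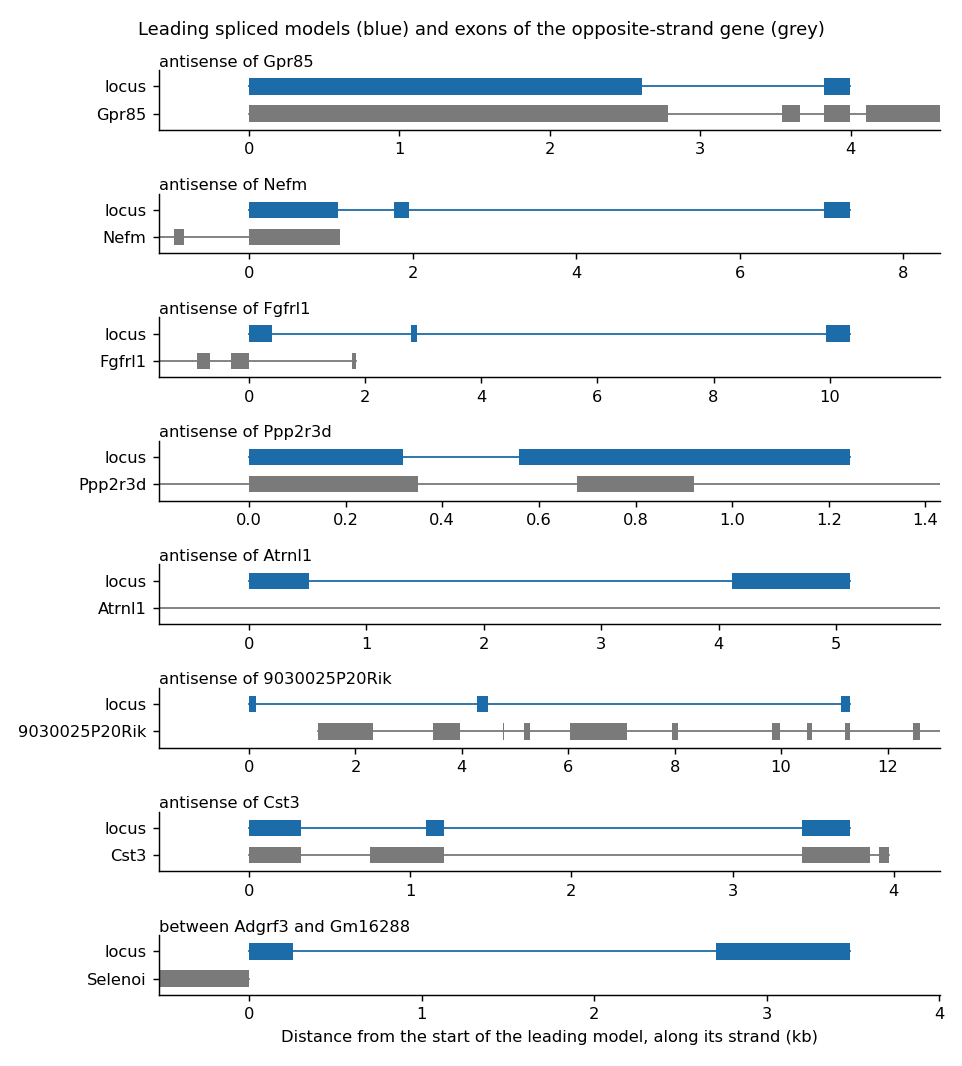
Exons (boxes) and introns (lines) of the leading model of 8 loci in blue and of all annotated transcripts of the opposite-strand gene in grey, by distance in kilobases from the start of the leading model along its strand. Boxes of Gpr85 and Cst3 face host exons, those of Atrnl1 face a host intron, and at Selenoi the host exon ends where the locus begins.

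Presence in both libraries followed the number of reads. A spliced model was found in both libraries at 284 of the 1758 loci (16.2%): 184 of 1125 antisense loci (16.4%) and 100 of 633 intergenic loci (15.8%). A single spliced read supported 1313 loci (74.7%), which can lie in 1 library only, 732 in replicate 1 and 581 in replicate 2. With 2 spliced reads, 89 of 208 loci were in both (42.8%). With 3 or 4 reads 96 of 125 were in both (76.8%), with 5 to 9 reads 69 of 80 (86.3%), and with 10 or more 30 of 32 (93.8%). Unspliced loci stood at 39.9% of 1807 with 2 reads, 66.3% of 1177 with 3 or 4 and 85.7% of 722 with 5 to 9 of reads of any kind. The shares of spliced and unspliced loci were thus close at 2 reads and at 5 to 9, and 76.8% against 66.3% at 3 or 4. For the loci with 1 spliced read, absence from the other library was not detectable at this depth.

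**Figure D3:**
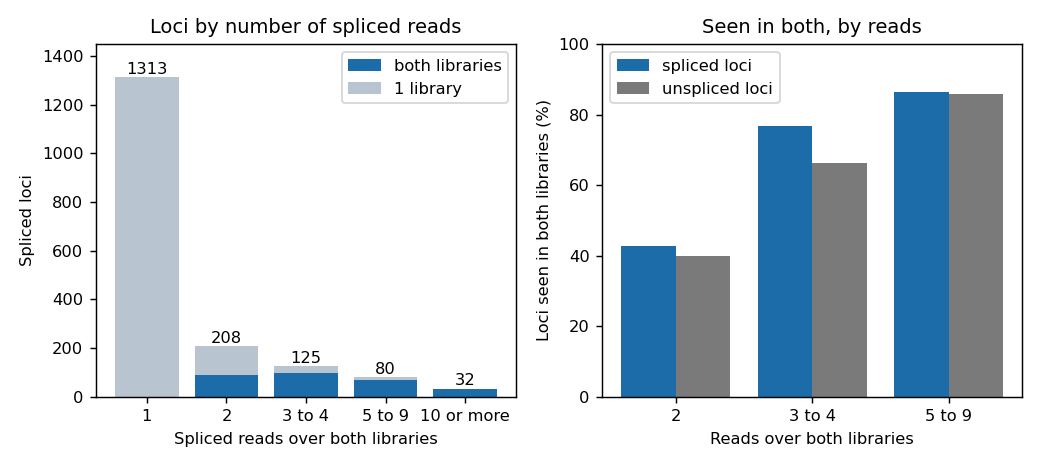
Stacked bars (left) count the spliced loci seen in both libraries and in 1 library by their number of spliced reads, and paired bars (right) give the percent of spliced and of unspliced loci seen in both libraries at 2, 3 to 4 and 5 to 9 reads. The bar of 1313 loci with 1 read is the tallest, and the spliced share in both libraries is 42.8% at 2 reads and 86.3% at 5 to 9.

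The 284 loci held 794 of the spliced reads in replicate 1 (44.5%) and 784 in replicate 2 (51.3%). At 241 of them (84.9%) at least 1 intron was the same to the base in both libraries, and at 192 the whole intron chain of the leading model was. Their median was 3 spliced reads over both libraries, and 23 had 5 or more in each. Equal numbers of spliced reads were counted at 114 loci, more in replicate 1 at 87 and more in replicate 2 at 83. Across these 284 loci the levels of the 2 libraries had a Spearman rho of 0.50, a description of loci from shared libraries, most with few reads. The median level was 1.12 CPM for the antisense and 1.48 CPM for the intergenic loci of this set.

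Over all loci there were 3394 distinct introns, with a median length of 2163 bases and a range of 40 to 192472 bases, and 386 of them (11.4%) were in both libraries. Only 10 were shorter than 70 bases. There were 452 antisense and 267 intergenic loci with 3 or more exons, and 75 and 46 with 5 or more. Every read was spliced at 1300 loci (73.9%), while at 100 loci spliced reads were under 10% of all reads. By position, 40 loci were on the X chromosome, 4 on unplaced or unlocalized contigs and 1 on the mitochondrial chromosome, opposite mt-Nd4, which is transcribed without introns and had 2 and 0 spliced antisense reads. No locus covered a microRNA hairpin on its own strand, and 8 covered one on the opposite strand.

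Among loci with a spliced model in 1 library only, the highest spliced counts were in replicate 1. Reads of any model, spliced or not, were in both libraries at 519 of the 1758 loci. The locus opposite Srp72, of the signal recognition particle, and the locus between AC131692.2 and Mir6988, which overlaps the 5′ end of the ubiquitin ligase gene Syvn1, each had 10 spliced reads in replicate 1 and 0 in replicate 2, and 12 and 2 reads in all. Opposite Sparc, a secreted matrix protein, there were 9 and 0, opposite Arl6ip1, a membrane-shaping protein, 7 and 0, and opposite Cntn1, a neuronal adhesion protein, 7 and 0. The loci of Srp72, Sparc and Arl6ip1 each held a mirrored intron. Spliced in replicate 2 alone, the highest were 5 reads between Il11ra2 and Ccl19, on a contig of repeated chemokine and receptor genes where copies cannot be told apart with confidence, and 5 between Gm6829 and Gm14863. Here the choice of loci by their presence fixes the direction.

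Mirrored introns made up 305 of the 2134 distinct antisense introns (14.3%). Of the 1274 intergenic introns 0 were of this kind, which their place between annotated genes largely sets. Mirrored introns were found at 213 antisense loci, 206 of which lay within the host gene. Of these loci 36 were in both libraries (16.9%), against 16.2% of the other antisense loci, and 40 of the 248 antisense introns shared by both libraries were mirrored (16.1%). Mirrored introns were therefore about as frequent among recurring introns as among all. The host genes of mirrored loci had a median of 51.1 CPM, and those of the other antisense loci 11.5 CPM. The median mirrored locus had 87.5 host reads for each mirrored read.

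Most models with a mirrored intron lay largely or wholly over exons of the host. Of 258 such models, all introns were mirrored in 230, and the median share of their bases that lay in exons of the opposite gene was 100%. For antisense models with no mirrored intron that median was 6.15%. At least 99% of the bases lay in host exons in 190 of the 258 mirrored models (73.6%) and in 124 of 1284 others (9.66%). The 5′ end was the same base as an annotated 3′ end of the opposite strand in 130 of the 258 (50.4%), against 115 of 1301 antisense models without a mirrored intron (8.84%). The 3′ end was the same base as an annotated start of the opposite strand in 94 (36.4%), against 58 (4.46%). Among 17170 unspliced models of both classes, these shares were 19.7% (3380) for the 5′ end and 3.21% (552) for the 3′ end. An end on such an annotated base was thus frequent but not general among mirrored models.

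Among named members, mirrored introns were found opposite Gpr85, Cst3, Slitrk5, Ptn and Bcl2l1. The mirrored junction of Gpr85 had 27 reads in replicate 1 and 26 in replicate 2, and the first of the Cst3 junctions had 12 and 11. The junctions of Ptn (12 and 3), Bcl2l1 (6 and 7) and Ybx1, an RNA-binding cold shock protein (10 and 2), carried most spliced reads of their loci. Opposite Tox, a transcription factor gene, the locus mirrored 4 introns with 4 and 3 spliced reads, and 2 of these introns were in both libraries. All 5 introns of the locus opposite Eif2s2, a subunit of the initiation factor eIF2, were mirrored, with 1 read in each library. Only 1 of these 5 introns was in both libraries. In contrast, the introns opposite Ppp2r3d and Mir124a-1hg, the host gene of the neuronal microRNA miR-124, matched no annotated intron and had 8 and 8 reads and 3 and 9 reads.

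Splice-site letters could be read for few introns, since no genome of the files' build was used here. Both dinucleotides lay in a RefSeq or GENCODE sequence for 219 of the 3394 introns (6.45%), a share too small to stand for all. Of 27 readable mirrored introns, 27 read CT and AC on the strand of the model, as the position on an annotated intron of the other strand sets them. Of 192 readable introns with no mirror, 151 read GT and AG, 24 GC and AG, 1 AT and AC, 3 CT and AC, and 13 another pair. Among 27 readable introns found in both libraries, 23 read GT and AG and 3 read CT and AC. The strand setting of the library preparation was not given in the sources used here, and from which strand the RNA of mirrored models was copied was not tested.

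The libraries differed in mirrored models more than in the other spliced models. In replicate 1, 170 of 860 antisense spliced models had a mirrored intron (19.8%, exact Clopper-Pearson 95% interval 17.2 to 22.6%), and in replicate 2 88 of 699 did (12.6%, 10.2 to 15.3%). By reads, 306 of the antisense spliced reads of replicate 1 were in such models and 145 of replicate 2, with 873 and 805 in the other antisense models. The split differed between the libraries with p = 1.46e-09 by two-sided Fisher's exact test, a comparison added after the data had been seen. Of the distinct antisense introns, 18.1% were mirrored in replicate 1 and 10.3% in replicate 2.

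**Figure D4:**
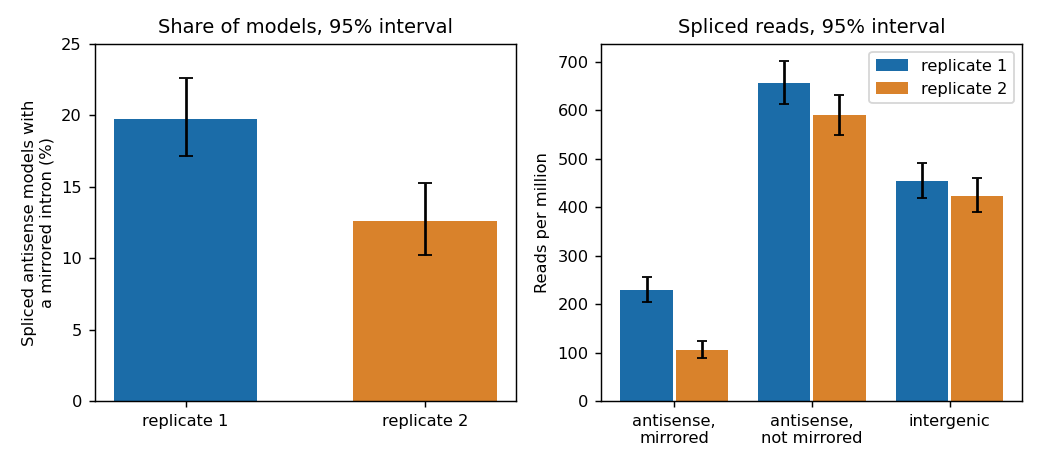
Bars show, for each library, the percent of spliced antisense models with a mirrored intron (left) and the spliced reads in CPM of mirrored antisense, other antisense and intergenic models (right), and whiskers are exact 95% Clopper-Pearson intervals. The intervals of the libraries do not overlap for mirrored reads (306 and 145 reads), and they overlap for other antisense and for intergenic reads.

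As a share of all reads, spliced models of both classes took 0.134% of replicate 1 (95% interval 0.128 to 0.140%) and 0.112% of replicate 2 (0.106 to 0.118%), a mean of 0.123 ± 0.0157% (SD, n = 2). Replicate 1 was higher 1.20 times (p = 2.16e-07, two-sided Fisher's exact test of reads). Antisense models stood at 0.0886% and 0.0695%, a ratio of 1.27 (p = 2.42e-08, Fisher's exact test). Intergenic models stood at 0.0454% and 0.0424%, a ratio of 1.07 that did not pass (p = 0.245, Fisher's exact test). The ratio was highest in the mirrored models, with 0.0230% against 0.0106% of reads, a ratio of 2.17 (p = 2.60e-15, Fisher's exact test). Antisense models with no mirrored intron had a ratio of 1.11 (p = 0.0279, Fisher's exact test), and all spliced models without the mirrored ones 1.10 (p = 0.0143, Fisher's exact test). The comparisons with and without mirrored models were added after the data had been seen.

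Unspliced antisense models moved the same way, farther than all spliced models together but less far than the mirrored ones. They stood at 5.25% of reads in replicate 1 and 2.95% in replicate 2, a ratio of 1.78. Unspliced intergenic models stood at 0.432% and 0.335% (1.29). Choroid plexus markers summed 44.0 times higher in replicate 1 as well. Of the 6 choroid plexus genes only Enpp2 had a spliced antisense locus, with 0 and 1 spliced reads. Of all 35 marker genes checked, 7 had such a locus (Rbfox3, Syt1, C1ql2, Slc1a2, Mbp, Mobp and Enpp2). The part of unspliced antisense reads and of choroid plexus tissue in the shares above was not tested.

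Locus by locus, almost all reads of the loci that passed on all reads were unspliced. Counting all reads of a locus, 158 spliced loci had at least 10 reads over both libraries and 48 of them passed Fisher's exact test at a Benjamini-Hochberg adjusted p of 0.05 (30.4%), 46 higher in replicate 1 and 2 higher in replicate 2. Over all 12920 genes and loci tested the share was 7.71% (996), with 4.29% higher in replicate 1 and 3.42% higher in replicate 2, and over loci with unspliced models alone it was 22.5% (196 of 871). The median log2 ratio of replicate 1 to replicate 2, on the scale of CPM + 1, was 0.55 over the spliced loci and -0.01 over all features. Of the 29169 reads of the 48 loci, only 85 were spliced (0.291%), and 45 of the 48 had under 10% of their reads spliced. Most reads were spliced at 2 of the 48, those opposite Sparc and Arl6ip1, each with 13 and 0 reads in all. The locus opposite Otub1, a deubiquitinase gene, had 440 reads in replicate 1 and 1 in replicate 2, and that opposite 2900097C17Rik had 364 and 2. The 2 loci higher in replicate 2 lay opposite Atxn1 (52 and 90 reads) and Gm21985 (0 and 13). The loci opposite Otub1, 2900097C17Rik, Atxn1 and Gm21985 were named after their values had been seen. The loci opposite Sparc, Arl6ip1, Otub1, 2900097C17Rik and Gm21985 reached the minimum of 10 reads only through the library where they were higher. Their passing therefore supports nothing.

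With spliced reads alone, 32 loci could be tested and 2 passed, Srp72 and the locus between AC131692.2 and Mir6988, both with 10 and 0 reads. Both reached the minimum of 10 reads only through replicate 1, so their passing is given as a count and supports nothing. The share over all features was then 7.36% (941 of 12794), and the median log2 ratio of the 32 loci was 0.03. On all reads neither locus passed (adjusted p = 0.0746, Fisher's exact test). With edgeR's exact test and a dispersion common to all features (a coefficient of variation of 19.5% between the libraries), 10 of the 158 loci passed on all reads, against 0.658% of all features (85 of 12920).

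Most hosts of the antisense loci were protein coding, as were most annotated genes with reads, and the protein-coding hosts had a higher median level. An annotated opposite-strand gene was found for 1111 of the 1125 antisense loci, 1050 distinct genes of which 907 were protein coding (86.4%) and 64 were long intergenic noncoding RNAs. Of 33303 genes and loci with reads, 14708 were antisense or intergenic loci, and 15047 of the annotated genes were protein coding. The share among hosts was not tested against these genes. Protein-coding hosts had a median of 23.0 CPM, against 14.1 CPM for the 15047 protein-coding genes with reads, and 131 hosts had no reads. Across loci, host level and spliced antisense level had a Spearman rho of 0.033 (1111 loci in the same libraries, given as a description). The antisense level exceeded that of the host at 166 loci, 35 of them in both libraries. Exons overlapped host exons at 794 loci (71.5%), by a median of 415 bases where they overlapped.

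Presence in both libraries is given next by position on the host. Of the antisense loci, 714 lay within the host, 216 overlapped its 5′ end, 114 its 3′ end, and 67 spanned it. The shares found in both libraries were 12.9% within the host, 23.1% at its 5′ end, 19.3% at its 3′ end and 26.9% for loci spanning it. These shares were not adjusted for the reads or the length of the loci and have no test. A same-strand GENCODE gene span was touched by 69 loci, whose reads could belong to that gene.

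A larger share of spliced than of unspliced loci started near an annotated start of the opposite strand. These shares are descriptions with no test. Within 1000 bases of an opposite-strand annotated transcript start lay 27.5% of spliced loci, and 35.6% of those in both libraries. For antisense loci the share within 1000 bases was 32.4% when spliced and 13.1% when unspliced, and for intergenic loci 18.8% and 9.12%. Within 300 bases the antisense shares were 21.8% and 6.87%. Antisense loci in both libraries reached 33.2% within 300 bases and 44.0% within 1000. Mirrored loci rarely began there, with 5.63% within 300 bases against 25.5% of antisense loci without a mirrored intron.

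A large part of these starts was the annotated base itself. Of 1757 spliced loci with an annotated opposite start on their chromosome, 271 began exactly at such a base (15.4%), 7 began 1 to 50 bases away and 66 began 51 to 300 bases away. Of 12944 unspliced loci, 537 began exactly there (4.15%), 53 within 50 bases and 292 within 51 to 300 bases. Among the 284 spliced loci in both libraries 54 began on the base (19.0%). Of the 2443 spliced models 941 had a 5′ end on some annotated exon boundary of the opposite strand (38.5%), and 10 were 1 to 50 bases from one. Unspliced models were not far below, with 5493 of 17170 on such a boundary (31.99%) and 44 at 1 to 50 bases from one. An end on an annotated boundary was thus not particular to spliced models. Whether reads began at those bases cannot be read from the deposited files, and the effect of how ends were set on the start distances was not tested. Without the loci on the base itself, 14.3% of spliced loci began within 1000 bases.

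**Figure D5:**
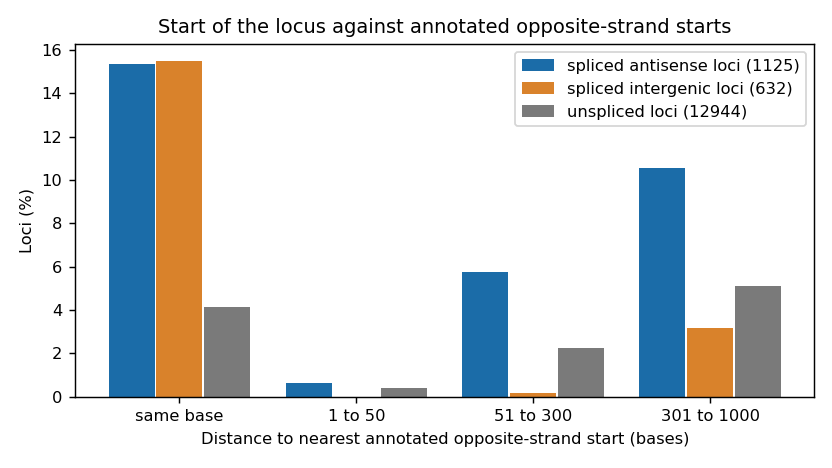
Bars give the percent of spliced antisense, spliced intergenic and unspliced loci by distance in bases from the start of the locus to the nearest annotated transcript start of the opposite strand. The bars for the same base stand at 15.4%, 15.5% and 4.15%, and those for 1 to 50 bases are all far lower.

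Members at the base itself included the loci opposite Selenoi and Fgfrl1, whose windows are printed above. Of the intergenic loci, 111 overlapped an annotated gene of the opposite strand, 95 of them by 1 base, as at Selenoi. The locus opposite Coa6 also overlapped its host by 1 base, yet its class was antisense. What set the class of such loci was not tested.

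RefSeq windows of opposite-strand starts near a spliced locus were rich in CG. The 195 windows whose start lay within 300 bases of a spliced locus start had a median of 22 CpG dinucleotides and 62.0% G and C, against 7 and 52.7% over all 32851 windows. The motif GGGCGG, searched on both strands, was in 131 of the 195 (67.2%) and in 35.7% of all windows. TATAAA was in 2.56% and 13.6%, and CCAAT in 34.9% and 37.4%. For the 40 such windows of loci in both libraries the values were 21.5 CpG, GGGCGG in 28 windows and TATAAA in 5.0%. Same-strand RefSeq starts within 300 bases (184 windows) were closer to all windows, with 8 CpG, 53.7% G and C and GGGCGG in 29.9%. A motif match describes the letters and is no evidence of binding, and many of the starts lie on annotated bases as given above.

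Some loci lay over genes that RefSeq holds and GENCODE M21 does not. The span of such a RefSeq gene on the same strand was overlapped by 390 of the 1758 loci (22.2%), 387 distinct genes of which 369 were long noncoding RNAs and 18 protein coding. Only the 27024 of 49976 placed RefSeq genes with a known strand could be compared, so these shares may be too low. Overlap of spans does not show that locus and gene are the same transcript. The share was 28.2% for loci in both libraries (80 of 284) against 310 of 1474 for loci in 1 library. It was 18.8% for antisense loci and 28.3% for intergenic loci. At 184 loci the start was within 300 bases of a RefSeq start of the same strand, 40 of them in both libraries. Examples are the loci between AC136453.1 and Gnaq, the Gq alpha subunit gene (4 and 3 spliced reads, 3 bases from Gm32026), between Zfp97 and Gm5165 (16 bases from a start of Gm38396) and between Zfp239 and Gm29509 (21 bases from Gm38882). These loci are among the 40, their windows are printed above, and the distances are from the leading models.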

How the data were processed

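The values deposited by the authors are raw long-read counts for each transcript model, made with TALON per the file headers, on mm10 and GENCODE M21 per the description files. The aligner, the TALON version, the platform, the filters and the strand setting were not given in the sources used here. A table lists only models with at least 1 read, and no normalization was applied by the authors.

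Groups and replicate numbers came from the labels. Antisense and intergenic genes of both libraries were joined into loci where their spans overlapped on the same strand, and the class of a locus was that with most spliced reads. CPM used all reads of a library as the total. Annotated genes and loci whose reads in the libraries summed to at least 10 were tested by two-sided Fisher's exact test against all other reads of the library, and p-values were adjusted by Benjamini-Hochberg over all 12920 features at 0.05. With 1 library on each side no quasi-likelihood fit was possible. The common dispersion for edgeR's exact test came from the same libraries. The step of Fisher's exact test was tested on simulated data that held counting error alone. Those data cannot show how the test performs under the spread between these libraries. Intervals were exact Clopper-Pearson at 95%.

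The members, lists and marker genes were chosen with earlier results of these data known. The named loci were the 15 antisense and 10 intergenic ones of highest mean spliced CPM among loci in both libraries, and the 5 of each class with most spliced reads among loci in 1 library. Their hosts or neighbours were named too. Loci opposite Ybx1, Tox, Eif2s2, Mir124a-1hg, Otub1, 2900097C17Rik, Atxn1 and Gm21985, the locus beside Gnaq and the printed sequences were chosen after their values had been seen. The design foresaw shares of splice-site pairs, of poly(A) signals and of A-rich sequence after the 3′ end. Without a genome of the build, 6.45% of introns and 21.1% of model ends could be read, below the 80% required, so only counts of splice pairs are given. Alternatives covered matching, read minimum, intron length, totals, test, tolerance, distance and single libraries. Tools were Python 3.11.15, pandas 2.3.3, numpy 2.4.6, scipy 1.17.1, matplotlib 3.10.9, R 4.3.3, edgeR 4.0.16 and DESeq2 1.42.0 (size factors only).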

Additional observations from a re-analysis of the deposited data

How the results depend on the processing

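With a minimum of 2 reads for a model in a library, the loci fell from 1758 to 250 and those in both libraries from 284 to 72, and the mean share of reads was 0.0456%. Leaving out a replicate left 930 to 1112 loci. Matching loci by exon overlap (1758 and 284), by an identical intron (1805 and 242) or with a longest intron of 70 bases or more (1750 and 284) stayed within 1.5 times of these counts. Counting all reads, 48 loci passed in the main setting. Of these edgeR's exact test left 10, while TMM and DESeq2 library sizes gave 49, no read minimum 43 and a minimum of 20 reads 45. Counting spliced reads alone, 2 of 32 loci passed, and neither was among the 48. The share of loci starting near an opposite annotated start was 19.6% within 300 bases, 33.5% within 2000 bases and 14.3% within 1000 bases without loci on the annotated base itself (added after the data had been seen), and 27.5% to 29.8% without a replicate. The ratio of read shares was 2.17 for mirrored models alone and 1.10 without them (both added). The mirrored share of antisense introns was 16.3% with a tolerance of 10 bases, and 10.3% to 18.1% without a replicate. Splice-pair, poly(A) and A-rich alternatives were not run, for lack of readable sequence. No paired analysis was possible because the labels give 1 group. Depth limits the single loci: the median locus in both libraries had 3 spliced reads.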
